A study of Homo sapiens with 9 samples.

Results

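The genes described here encode the chains of 2 protein families of the extracellular matrix, the collagens and the laminins. Members were the protein-coding genes in the deposited tables whose symbols have the form of a collagen chain (COL, a number, A, a number) or of a laminin chain (LAMA, LAMB or LAMC and a number). There were 56 of them, 44 collagens and 12 laminins, among 58735 annotated genes of which 19951 are protein-coding. A member was compared between conditions if it had at least 10 counts in at least 3 of the 9 libraries, which 36 members did (26 collagens and 10 laminins). RNA was sequenced from MDA-MB-231, an established human triple-negative breast cancer cell line, in 3 libraries for each of 3 conditions: cells given the vehicle DMSO, cells treated with erastin (erastin-R, the study's name for them) and cells treated with RSL3 (RSL3-R). Erastin blocks cystine import, RSL3 blocks the lipid peroxidase GPX4, and both induce ferroptosis, a cell death by lipid peroxidation. All groups are the same line with no other genetic change named, the drug-treated cells are, per the study, those that survived rising doses, with no value here for how resistant they were, and the labels do not say whether the 3 libraries of a condition came from separate cultures, so the p-values measure the spread between these libraries, which may be technical.

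Collagens are trimers of chains wound into a triple helix. Fibrillar collagens build the fibrils of interstitial tissue, collagen IV builds the network of basement membranes, collagen VI forms beaded microfibrils, and collagen VII forms the anchoring fibrils that tie a basement membrane to the tissue beneath. Laminins are trimers of an alpha, a beta and a gamma chain and are named after their chains: LAMA3 and LAMB3 encode chains of laminin-332, the adhesive laminin of epithelia, whereas laminin-511 holds those of LAMA5, LAMB1 and LAMC1. A trimer needs each of its chains, so the chains are described by trimer and by family below.

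Total counts per library ranged from 15405102 to 17273464, and 3 counts, the smallest number taken as detected, corresponded to between 0.175 and 0.193 CPM (counts scaled to the library size after TMM normalization). The defining genes of the line were high: the summed level of VIM, CD44, MSN and AXL lay between 4013 and 4617 CPM in all 9 libraries, against 6.99 to 10.9 CPM for the sum of ESR1, PGR, GATA3, CDH1 and EPCAM, genes of luminal or epithelial cells. Within that sum CDH1, the epithelial cadherin, rose by 1.58 ± 0.33 (log2, standard error) in RSL3-R against vehicle (adjusted p = 0.0013) and by 2.18 ± 0.35 against erastin-R (adjusted p = 0.00018), with 1.14 ± 0.45 CPM in vehicle, 0.750 ± 0.424 in erastin-R and 3.43 ± 0.32 in RSL3-R libraries (SD, n = 3), while GATA3 differed by -0.56 ± 0.20 between RSL3-R and erastin-R (adjusted p = 0.032). Markers of other cell types were low. The 5 fibroblast markers PDGFRA, PDGFRB, DCN, LUM and THY1 summed to between 7.82 and 8.33 CPM in vehicle libraries, 5.89 and 7.46 in erastin-R and 11.0 and 12.0 in RSL3-R, mostly from PDGFRB, while PDGFRA, LUM and THY1 had at most 2 counts in any library. The 3 endothelial markers PECAM1, CDH5 and VWF summed to between 9.67 and 11.1 CPM in vehicle libraries, 1.65 and 2.38 in erastin-R and 11.7 and 14.2 in RSL3-R, almost all from PECAM1, with CDH5 at no more than 3 counts. The 3 immune markers PTPRC, CD3E and CD68 summed to between 0.678 and 0.862 CPM in vehicle, 0.182 and 0.654 in erastin-R and 1.46 and 1.80 in RSL3-R libraries. These last 3 sums and the mean of CDH1 were highest in RSL3-R and lowest in erastin-R libraries, as were several members below, and their part in the results was not tested. Not every marker followed its sum: DCN, of the fibroblast list, was lower in RSL3-R than in vehicle libraries, as given below.

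Sequences around the start sites of several of the genes that the results turn on are shown first. They come from a RefSeq table on GRCh38.p14, which had windows for 41 of the 56 members (55 windows, from 250 bases before to 50 bases after a start site). Capitals mark 4 short motifs, searched on both strands, so that a match on the other strand stands as its reverse complement. They were the GC box with the letters GGGCGG, the core of the CCAAT box, the TATA box with the letters TATAAA, and the AP-1 site with the letters TGANTCA, which is the same motif on either strand. No match overlaps another in the windows shown. Of all 35116 windows in the table, 44.95% held GGGCGG, 34.61% CCAAT, 11.53% TATAAA and 7.71% TGANTCA; of the 55 windows of members, 58.18% held GGGCGG, 29.09% CCAAT, 14.55% TATAAA and 5.45% TGANTCA. A match describes the letters in the window and not a bound factor. LAMA3 is shown at chr18:23872770-23873069 (plus strand), a window inside the gene, 183577 bases downstream of its outermost annotated start for the start site itself, with 230 of its 300 bases in annotated exons. LAMB3 had 3 windows. It is shown at its outermost start, chr1:209652376-209652675 (minus strand, 91 bases in exons), and at its innermost start, chr1:209651325-209651624 (minus strand, 70 bases in exons), while the middle window, chr1:209652280-209652579, overlaps the outermost one and is not printed. Both genes encode chains of laminin-332. COL7A1, which fell in one drug-treated state, is shown at chr3:48595280-48595579 (minus strand), just upstream of the gene as annotated in the files. COL4A1 at chr13:110307108-110307407 (minus strand) and COL4A2 at chr13:110307034-110307333 (plus strand), with 126 and 98 bases in exons, lie head to head, and their windows are the same stretch of DNA read from opposite strands over 226 bases.
LAMA3: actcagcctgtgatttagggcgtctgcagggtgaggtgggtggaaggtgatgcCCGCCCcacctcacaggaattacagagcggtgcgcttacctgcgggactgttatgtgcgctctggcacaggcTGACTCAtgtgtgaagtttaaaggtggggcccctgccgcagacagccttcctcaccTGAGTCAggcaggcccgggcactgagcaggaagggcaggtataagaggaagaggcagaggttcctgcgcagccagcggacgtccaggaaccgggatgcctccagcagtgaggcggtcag
LAMB3, outermost start: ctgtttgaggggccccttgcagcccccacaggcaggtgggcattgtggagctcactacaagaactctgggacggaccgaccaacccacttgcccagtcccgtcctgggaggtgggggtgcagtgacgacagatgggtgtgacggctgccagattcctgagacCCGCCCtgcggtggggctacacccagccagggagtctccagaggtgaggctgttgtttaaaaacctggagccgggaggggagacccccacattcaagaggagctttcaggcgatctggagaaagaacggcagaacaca
LAMB3, innermost start: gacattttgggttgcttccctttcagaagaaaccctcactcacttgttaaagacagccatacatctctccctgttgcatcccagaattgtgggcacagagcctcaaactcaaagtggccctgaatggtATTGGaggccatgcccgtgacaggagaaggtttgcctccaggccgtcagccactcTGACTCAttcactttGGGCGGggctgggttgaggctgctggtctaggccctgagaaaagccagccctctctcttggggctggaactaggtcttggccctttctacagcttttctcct
COL7A1: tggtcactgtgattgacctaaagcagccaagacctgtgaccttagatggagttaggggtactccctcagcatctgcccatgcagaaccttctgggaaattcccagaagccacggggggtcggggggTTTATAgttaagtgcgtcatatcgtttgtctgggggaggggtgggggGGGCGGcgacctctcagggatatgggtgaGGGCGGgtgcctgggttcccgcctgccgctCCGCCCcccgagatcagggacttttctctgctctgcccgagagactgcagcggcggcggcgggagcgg
COL4A1: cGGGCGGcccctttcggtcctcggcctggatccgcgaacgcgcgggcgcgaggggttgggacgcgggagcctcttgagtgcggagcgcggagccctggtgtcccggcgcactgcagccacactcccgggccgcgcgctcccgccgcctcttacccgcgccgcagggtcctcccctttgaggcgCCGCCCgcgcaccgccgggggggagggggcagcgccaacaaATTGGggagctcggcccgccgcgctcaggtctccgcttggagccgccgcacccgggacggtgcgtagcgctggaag
COL4A2: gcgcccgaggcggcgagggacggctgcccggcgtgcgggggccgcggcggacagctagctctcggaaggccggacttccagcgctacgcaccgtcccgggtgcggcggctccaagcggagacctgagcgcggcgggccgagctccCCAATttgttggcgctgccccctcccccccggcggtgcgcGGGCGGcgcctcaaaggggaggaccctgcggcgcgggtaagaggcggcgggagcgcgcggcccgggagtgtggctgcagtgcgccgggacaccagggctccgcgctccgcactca
LAMA3 held 2 matches to TGANTCA and the innermost LAMB3 window 1, together with a CCAAT and a GGGCGG match, whereas the outermost and the middle LAMB3 window held, of the 4 motifs, GGGCGG alone. The COL7A1 window held 1 TATAAA and 3 GGGCGG matches. COL4A1 and COL4A2 shared 1 CCAAT and 1 GGGCGG match in their common stretch, and the COL4A1 window held a further GGGCGG match.

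Laminin chains were the most abundant members per unit of length. On the scale of CPM per kilobase of exons, LAMB3 (54.4 ± 1.5 in vehicle, SD, n = 3), LAMA5 (72.6 ± 4.3), LAMB2 (60.1 ± 2.1) and LAMC1 (65.1 ± 1.8) headed the order by mean over all libraries, followed by COL6A1 (34.9 ± 2.4), the highest collagen by that mean. In erastin-R libraries the highest collagen was COL8A1, at 21.8 ± 0.6 against 15.7 ± 0.8 for COL6A1. The order among the 4 laminins depended on the condition: in vehicle libraries LAMA5 was highest, and in erastin-R libraries LAMB3 was (108 ± 10 against 59.5 ± 11 for LAMA5). The largest share of the summed laminin CPM came from LAMA5, the alpha chain of laminin-511 and laminin-521, with between 35.4% and 37.8% in vehicle, 26.5% and 32.3% in erastin-R and 37.8% and 40.0% in RSL3-R libraries. These shares are not corrected for length, and LAMA5 has 14291 bases of exons against 4688 for LAMB3.

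At the other end, 20 members fell below the filter, 10 of them with 3 counts or fewer in every library. COL5A3 and COL22A1 had no count in any library, which allows a level of up to 3 counts per library. Chains of fibrillar collagens were among them: 5 of 11 passed the filter, near the 5 of 10 of the fibril-associated collagens. COL1A1, which pairs with COL1A2 in type I collagen, had 111 to 205 counts per library, but COL1A2 had a single count in 1 library, COL3A1 5 counts in 1 library, and COL11A1 at most 2 counts. Of the 11 fibrillar chains, COL5A1 was the most abundant, at 11.2 ± 0.4 CPM per kilobase in vehicle libraries, whereas its partner COL5A2 had 18 to 32 counts per library. LAMC3, LAMB4, COL2A1 and COL6A5 had at most 7 counts.

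**Figure D1:**
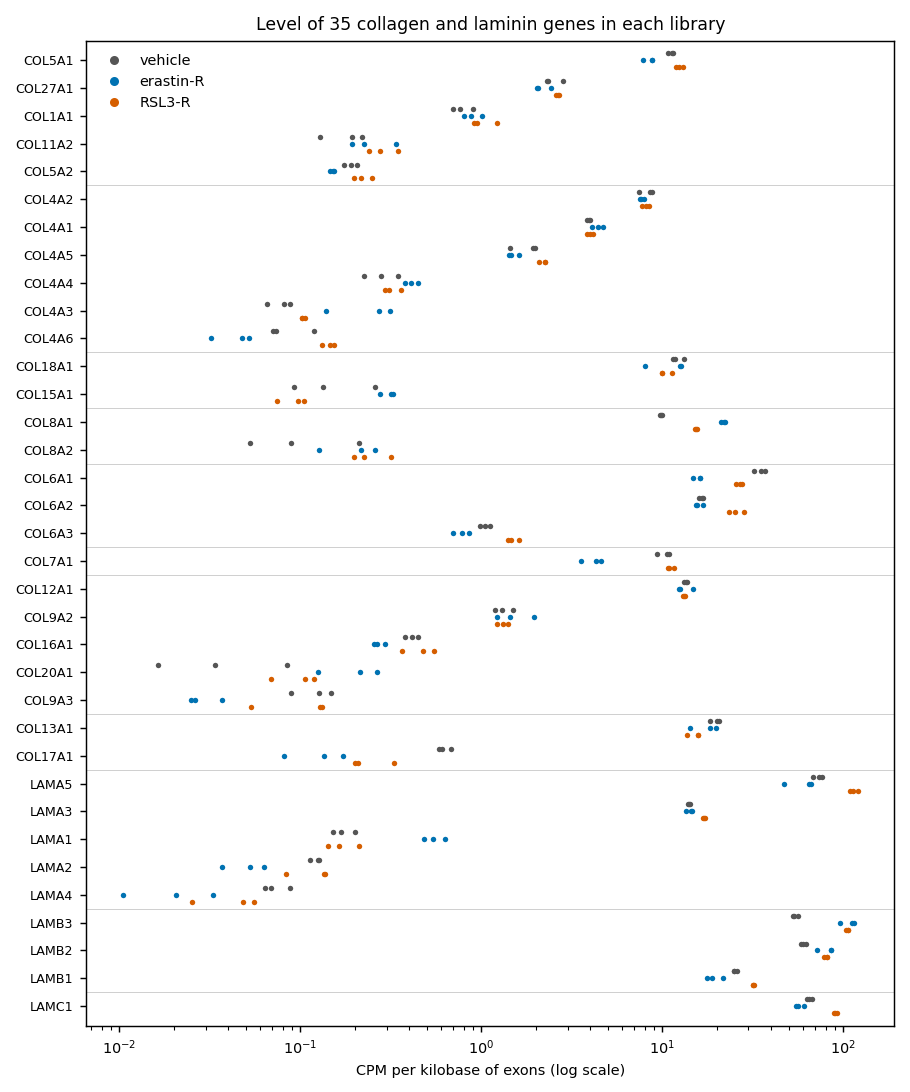
Levels of members compared between conditions. The horizontal axis gives CPM per kilobase of exons on a log scale, each point is 1 library (grey vehicle, blue erastin-R, orange RSL3-R; 3 libraries each), and grey lines separate the families. LAMB3, LAMA5, LAMB2 and LAMC1 lie furthest to the right, and COL7A1 shows the blue points well to the left of the others.

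The question of each comparison was which chains differ between a drug-treated state and the DMSO control, or between the drug-treated states. In erastin-R cells, 8 of the 36 members were higher and 13 lower than in vehicle-treated cells at an adjusted p below 0.05, that is 22.2% and 36.1%, while 26.9% and 26.7% of all 16330 genes tested were called higher and lower. At an at least 2-fold change as well, the threshold of the study, 4 members (11.1%) were higher and 7 (19.4%) lower, against 6.69% and 6.71% of all genes. In RSL3-R cells, 12 members (33.3%) were higher and 3 (8.33%) lower, with 23.6% and 24.7% of all genes; at 2-fold, 0 were higher and 1 was lower (2.78%), against 6.00% and 4.08%. DESeq2 and limma after quantile normalization also gave 0, and 2 members passed 2-fold and an unadjusted p below 0.05 in edgeR. Compared directly, 17 members (47.2%) were higher in RSL3-R than in erastin-R cells and 5 (13.9%) lower, with 22.2% and 26.7% of all genes, and 5 and 4 passed 2-fold (13.9% and 11.1%, against 6.88% and 3.50%). The members' median log2 fold changes were -0.15 for erastin-R against vehicle, 0.20 for RSL3-R against vehicle and 0.28 for RSL3-R against erastin-R, where the medians over all genes tested were -0.0044, 0.0053 and -0.024. The members tested had a median level of 28.0 CPM and all genes tested one of 18.7, and the 3 comparisons share libraries. Leaving out 1 library changed a count in the direct comparison: without erastin-R replicate 1, 9 members instead of 5 were lower in RSL3-R cells. Calls rose among all genes too, from 4361 of 16330 lower to 4933 of 16195.

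**Figure D2:**
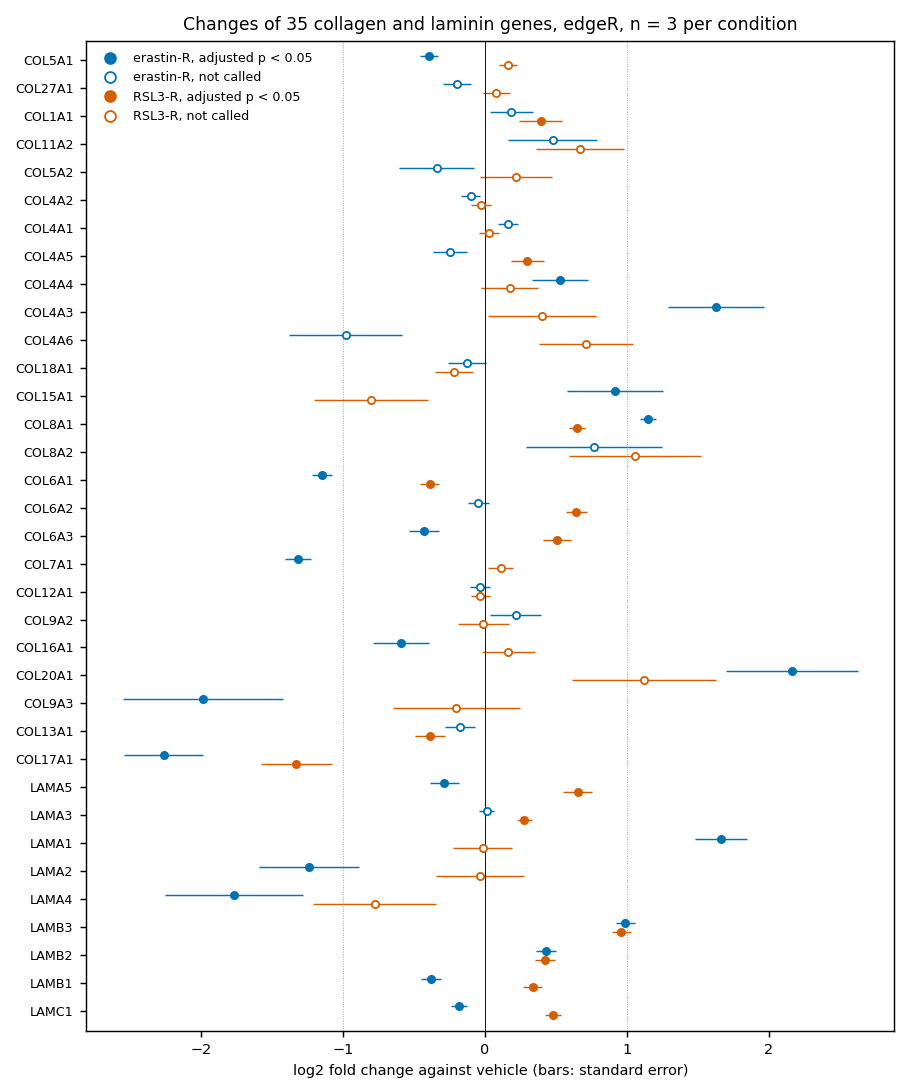
Log2 fold changes of members against vehicle, by family. Blue circles are erastin-R and orange circles RSL3-R, bars are standard errors, filled circles passed an adjusted p of 0.05 in edgeR and dotted lines mark a 2-fold change. COL7A1 lies at -1.31 and 0.11, LAMB3 at 0.99 and 0.96.

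Of the 10 laminins tested, 7 (70%) were called higher and 0 lower in RSL3-R cells, against 23.6% and 24.7% of all genes. In erastin-R cells 3 (30%) were higher, near the 26.9% of all genes, and 6 (60%) lower, against 26.7%. In edgeR with an unadjusted p, in DESeq2 and in limma the count of laminins lower in RSL3-R cells was also 0. The summed laminin level was 2818 ± 75 CPM in vehicle, 2802 ± 213 in erastin-R and 4215 ± 94 in RSL3-R libraries (SD, n = 3), and the summed collagen level 1322 ± 62, 1191 ± 49 and 1376 ± 47. Each of the 3 RSL3-R libraries lay above every other library in the laminin sum, while the collagen sums of vehicle and RSL3-R libraries overlapped. Without LAMA5 the laminin sum was still higher in each RSL3-R library, 2558 to 2616 CPM against 1762 to 1802 in vehicle libraries.

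LAMB3 (ENSG00000196878, chr1:209614870-209652466, minus strand), the beta chain of laminin-332, had 263, 253 and 249 CPM in vehicle libraries, 451, 524 and 540.3 in erastin-R and 487, 497 and 501 in RSL3-R. Every drug-treated library lay above every vehicle library, and the drug-treated states overlapped. LAMB3 rose by 0.99 ± 0.07 (standard error) on the log2 scale in erastin-R (adjusted p = 4.8e-08) and 0.96 ± 0.07 in RSL3-R (adjusted p = 5.9e-08), and the difference between them was -0.03 ± 0.07 (adjusted p = 0.753). Without erastin-R replicate 1, the lowest of its group, the direct difference was -0.10 (adjusted p = 0.032).

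LAMA3 (ENSG00000053747, chr18:23689443-23956222, plus strand), the alpha chain of the same trimer, stood at 210.2, 206 and 204 CPM in vehicle, 211, 215 and 199 in erastin-R and 246, 254 and 251 in RSL3-R libraries. The RSL3-R libraries were above all others, and vehicle and erastin-R overlapped. LAMA3 rose by 0.28 ± 0.05 on the log2 scale in RSL3-R (adjusted p = 0.00077), and its change in erastin-R was 0.01 ± 0.05 (adjusted p = 0.88).

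The ratio of LAMA3 to LAMB3, both in CPM per kilobase of the same library, was 0.259 ± 0.003 in vehicle, 0.133 ± 0.016 in erastin-R and 0.162 ± 0.002 in RSL3-R libraries. That of LAMB3 to LAMB1, the beta chain of laminin-511, was 2.15 ± 0.10, 5.61 ± 1.03 and 3.31 ± 0.04. The ratio does not depend on how libraries were scaled, its ranges in the 3 conditions did not overlap for either pair, and it was not tested. LAMA3 has long and short forms, and its level per length rests on the exons of both.

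LAMC1, the gamma chain of most laminins, had 546, 533 and 563 CPM in vehicle, 508, 476 and 459.9 in erastin-R and 761, 746 and 780.2 in RSL3-R libraries. The conditions did not overlap, with erastin-R lowest and RSL3-R highest. LAMC1 changed by -0.19 ± 0.06 in erastin-R (adjusted p = 0.012) and by 0.48 ± 0.06 in RSL3-R (adjusted p = 8.2e-06). The erastin-R call was lost without erastin-R replicate 3 (log2 fold change -0.15, adjusted p = 0.057).

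LAMA5 (ENSG00000130702) had 1094, 1047 and 972 CPM in vehicle, 677, 948 and 925 in erastin-R and 1557, 1721 and 1614 in RSL3-R libraries. RSL3-R was highest, and erastin-R replicate 1 was well below its own group. LAMA5 changed by 0.65 ± 0.10 in RSL3-R (adjusted p = 0.00012) and by -0.29 ± 0.10 in erastin-R (adjusted p = 0.027). Without erastin-R replicate 1 the erastin-R change was -0.15 (adjusted p = 0.0082), and without vehicle replicate 1 or vehicle replicate 2 it missed the threshold (adjusted p = 0.101 and 0.069), as it did with only the 2 groups compared (-0.28, adjusted p = 0.062) and in limma (adjusted p = 0.087). LAMB1, the beta chain of laminin-511, was looked at after its values were seen: it had 203, 203 and 212 CPM in vehicle, 177, 145 and 153 in erastin-R and 259, 261 and 259.7 in RSL3-R libraries. Its conditions did not overlap, and it changed by -0.38 ± 0.07 in erastin-R (adjusted p = 0.00038) and by 0.33 ± 0.07 in RSL3-R (adjusted p = 0.0012).

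LAMB2, the beta chain of laminin-521, rose in both states. It had 429, 410.0 and 399.8 CPM in vehicle, 489.6, 586 and 591 in erastin-R and 541, 562 and 557 in RSL3-R libraries. All drug-treated libraries were above the vehicle libraries. LAMB2 rose by 0.43 ± 0.07 in erastin-R (adjusted p = 0.00015) and by 0.42 ± 0.07 in RSL3-R (adjusted p = 0.0002), with a direct difference of -0.01 ± 0.07 (adjusted p = 0.957).

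**Figure D3:**
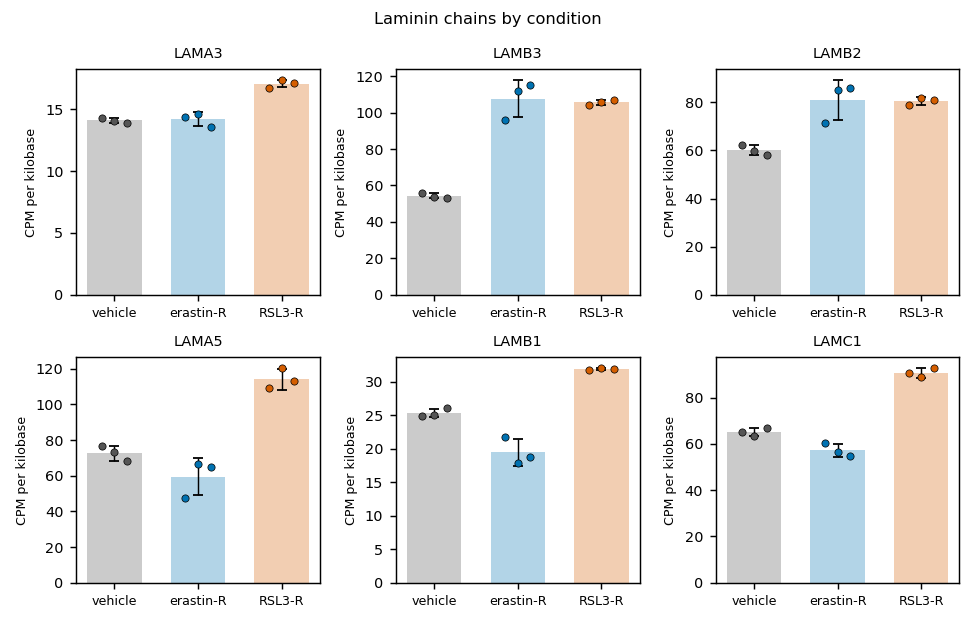
Levels of laminin chains. Bars are means of 3 libraries, error bars SD, points libraries, and the vertical axis CPM per kilobase of exons from 0. LAMB3 stood at 108 in erastin-R and 106 in RSL3-R against 54.4 in vehicle libraries, and LAMC1 was highest in RSL3-R at 90.7.

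The alpha chains of low level, LAMA1, LAMA2 and LAMA4, were called in erastin-R cells and not in RSL3-R cells. LAMA1, the alpha chain of the embryonic laminin-111, had 2.68, 3.21 and 2.40 CPM in vehicle, 8.56, 7.69 and 10.01 in erastin-R and 3.35, 2.61 and 2.27 in RSL3-R libraries. The erastin-R libraries were far above the others, and vehicle and RSL3-R overlapped. It rose by 1.66 ± 0.18 in erastin-R (adjusted p = 4.7e-06), differed by -1.68 ± 0.19 in the direct comparison (adjusted p = 6.9e-06), and its change in RSL3-R was -0.01 ± 0.21 (adjusted p = 0.96). Annotated exons of other genes, mostly AP002409.1 on the opposite strand with at most 2 counts, cover 11.1% of its exon length.

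LAMA2, the alpha chain of muscle laminin-211, fell by 1.24 ± 0.35 in erastin-R (adjusted p = 0.0086), from 22, 21 and 19 counts in vehicle libraries to 11, 6 and 9. LAMA4, found in laminins of vessels and mesenchyme, fell by 1.77 ± 0.49 (adjusted p = 0.0072), from 17, 13 and 12 counts to 4, 6 and 2. Erastin-R lay below vehicle in every library for both. LAMA4 reached 10 counts only in the 3 vehicle libraries and RSL3-R replicate 1, so its fall from vehicle is not independent of the count filter. LAMA4 is among the 7 members counted lower at 2-fold and the 6 laminins counted lower in erastin-R cells. In RSL3-R libraries LAMA2 had 22, 14 and 24 counts and LAMA4 10, 9 and 5, and neither change against vehicle passed the test (adjusted p = 0.938 and 0.154). Between the drug-treated states LAMA2 differed by 1.20 ± 0.35 (adjusted p = 0.012) and LAMA4 by 0.99 ± 0.53 (adjusted p = 0.14).

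The chains of collagen VI changed unequally in both states. COL6A1 (ENSG00000142156, chr21:45981737-46005050, plus strand), the alpha1 chain, had 198, 188 and 173 CPM in vehicle, 79.4, 86.3 and 86.7 in erastin-R and 136, 147 and 144 in RSL3-R libraries. The conditions did not overlap, with vehicle highest. It fell by 1.15 ± 0.07 in erastin-R (adjusted p = 1.4e-08) and by 0.39 ± 0.07 in RSL3-R (adjusted p = 0.00025).

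COL6A2, the alpha2 chain, lies 93046 bases downstream of COL6A1 in the same direction. It had 90.4, 89.0 and 86.4 CPM in vehicle, 82.7, 84.1 and 90.3 in erastin-R and 126, 137 and 153 in RSL3-R libraries. Only the RSL3-R libraries stood apart, above the rest. It rose by 0.64 ± 0.07 in RSL3-R (adjusted p = 7.1e-06), and its change in erastin-R was -0.05 ± 0.07 (adjusted p = 0.609). The ratio of COL6A1 to COL6A2 per kilobase was 2.12 ± 0.10 in vehicle, 0.990 ± 0.038 in erastin-R and 1.04 ± 0.08 in RSL3-R libraries, so that both drug-treated states had about as much of one chain as of the other, by a fall of COL6A1 in erastin-R and by opposite changes of the chains in RSL3-R.

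COL6A3, the long alpha3 chain, was far less abundant, with 20.7, 22.0 and 19.3 CPM in vehicle, 15.4, 16.8 and 13.8 in erastin-R and 28.9, 31.6 and 27.5 in RSL3-R libraries. The conditions did not overlap. It fell by 0.43 ± 0.10 in erastin-R (adjusted p = 0.003) and rose by 0.50 ± 0.10 in RSL3-R (adjusted p = 0.00081). COL6A5 and COL6A6 had at most 7 counts.

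The anchoring and hemidesmosomal collagens fell in erastin-R cells. COL7A1 (ENSG00000114270, chr3:48564073-48595267, minus strand) had 121, 118 and 103 CPM in vehicle, 39.2, 47.9 and 50.5 in erastin-R and 119, 129 and 121 in RSL3-R libraries. Erastin-R lay well below the other conditions, which overlapped. It fell by 1.31 ± 0.09 in erastin-R (adjusted p = 6.2e-08), while the change in RSL3-R was 0.11 ± 0.09 (adjusted p = 0.326) and the direct difference 1.42 ± 0.09 (adjusted p = 5e-08).

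COL17A1 (ENSG00000065618), a transmembrane collagen of hemidesmosomes, was the member past 2-fold in RSL3-R cells. It had 81, 67 and 70 counts in vehicle, 16, 9 and 20 in erastin-R and 23, 23 and 40 in RSL3-R libraries. Both drug-treated states lay below all vehicle libraries. It fell by 2.26 ± 0.28 in erastin-R (adjusted p = 1.2e-05) and by 1.33 ± 0.25 in RSL3-R (adjusted p = 0.00059). The direct difference of 0.93 ± 0.31 (adjusted p = 0.022) was lost without erastin-R replicate 2 (adjusted p = 0.089) or RSL3-R replicate 3 (adjusted p = 0.121), and in limma (adjusted p = 0.058).

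COL8A1 (ENSG00000144810, chr3:99638475-99799226, plus strand), a short-chain collagen of hexagonal networks, moved the other way. It had 94.5, 91.8 and 92.2 CPM in vehicle, 211, 199.8 and 206 in erastin-R and 143, 145 and 148 in RSL3-R libraries. No 2 conditions overlapped, with erastin-R highest. It rose by 1.15 ± 0.05 in erastin-R (adjusted p = 2.1e-09) and by 0.65 ± 0.05 in RSL3-R (adjusted p = 3.8e-07), a direct difference of -0.50 ± 0.05 (adjusted p = 5.1e-06).

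**Figure D4:**
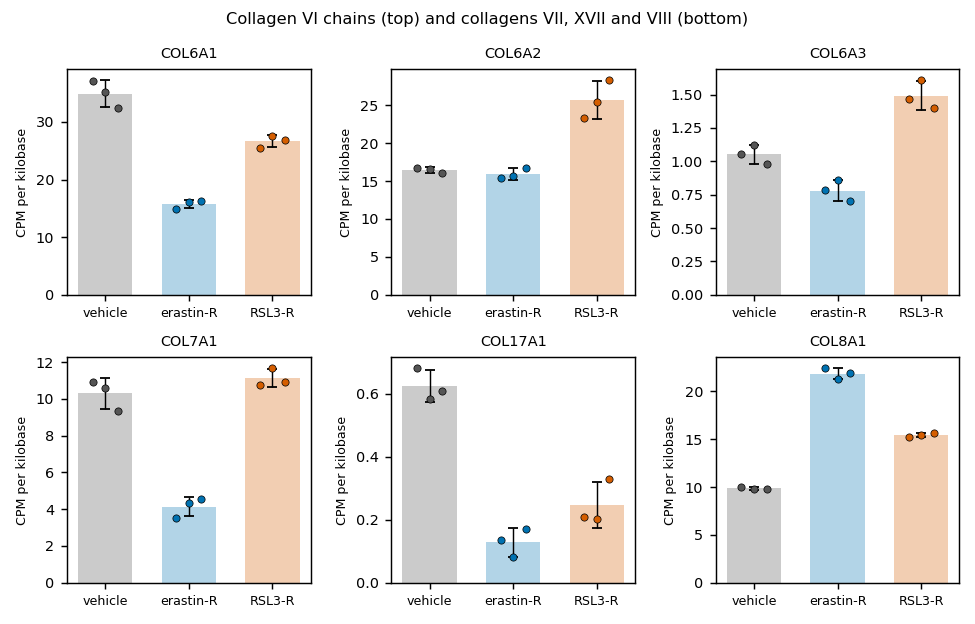
Levels of the collagen VI chains and of COL7A1, COL17A1 and COL8A1. Bars are means of 3 libraries, error bars SD, points libraries, and the vertical axis CPM per kilobase of exons from 0, with its own range in each panel. COL6A1 was lower in both drug-treated states, COL7A1 stood at 4.14 in erastin-R against 10.3 in vehicle libraries, and COL8A1 was higher in both.

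The main network chains of basement membranes, COL4A1 and COL4A2, were not called in any of the 3 comparisons. COL4A1 had 58.9, 58.3 and 56.9 CPM in vehicle, 60.0, 64.9 and 69.9 in erastin-R and 57.0, 61.3 and 59.0 in RSL3-R libraries, and its log2 fold changes were 0.16 ± 0.07 (adjusted p = 0.067) and 0.03 ± 0.07 (adjusted p = 0.79). COL4A2 had 169.8, 165 and 144 CPM in vehicle, 148, 152 and 146 in erastin-R and 149, 163 and 158 in RSL3-R libraries, with changes of -0.10 ± 0.07 (adjusted p = 0.23) and -0.03 ± 0.07 (adjusted p = 0.757). For COL4A2 the conditions overlapped, and for COL4A1 erastin-R lay just above vehicle; without erastin-R replicate 1 COL4A1 passed the test upwards in erastin-R (0.22, adjusted p = 0.0039) and downwards in RSL3-R against erastin-R (-0.19, adjusted p = 0.011), and without vehicle replicate 3 COL4A2 did (-0.17, adjusted p = 0.042). The ratio of COL4A1 to COL4A2 per kilobase was 0.478 ± 0.034 in vehicle, 0.571 ± 0.050 in erastin-R and 0.494 ± 0.005 in RSL3-R libraries.

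**Figure D5:**
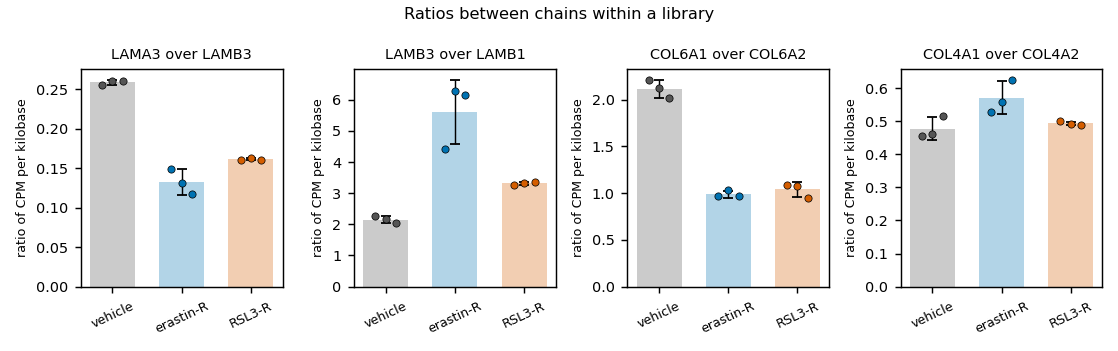
Ratios between chains of the same library, each from CPM per kilobase of exons. Bars are means of 3 libraries, error bars SD and points libraries; the vertical axes start at 0. LAMA3 over LAMB3 was 0.259 in vehicle and lower in both drug-treated states, COL6A1 over COL6A2 stood near 1 in both drug-treated states, and COL4A1 over COL4A2 ranged from 0.454 to 0.626 over all libraries.

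The minor collagen IV chains, which also lie in head-to-head pairs, were low. COL4A3, an alpha chain of the kidney network, had 10, 13 and 12 counts in vehicle, 48, 20 and 41 in erastin-R and 15, 15 and 16 in RSL3-R libraries, and rose by 1.63 ± 0.34 in erastin-R (adjusted p = 0.0011). All erastin-R libraries were above the others, with replicate 2 close to them. COL4A6 had 11, 11 and 18 counts in vehicle, 5, 7 and 8 in erastin-R and 21, 23 and 21 in RSL3-R libraries. Its conditions did not overlap, but the changes against vehicle (-0.98 ± 0.40 and 0.71 ± 0.33) missed the threshold at adjusted p = 0.0502 and 0.094 (and passed it without vehicle replicate 1, at 0.048, and without vehicle replicate 3, at 0.043), while the direct difference of 1.69 ± 0.37 passed it (adjusted p = 0.0019). Their partners COL4A4 and COL4A5 were among the members outside the rule for naming; COL4A4 was called higher in erastin-R cells and COL4A5 higher in RSL3-R cells.

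Of the remaining low collagens, COL20A1, a fibril-associated collagen, had 3, 15 and 6 counts in vehicle, 23, 37 and 48 in erastin-R and 18, 21 and 13 in RSL3-R libraries and rose by 2.16 ± 0.46 in erastin-R (adjusted p = 0.0014). Its direct difference of -1.04 ± 0.41 (adjusted p = 0.0499) was lost when any of 6 libraries was left out (vehicle replicate 3, erastin-R replicates 2 and 3 and each RSL3-R library). The call was also lost in DESeq2 (adjusted p = 0.055) and with its size factors in edgeR (0.053). COL15A1, a basement membrane collagen that carries an endostatin-like domain, had 15, 10 and 28 counts in vehicle, 31, 34 and 35 in erastin-R and 10, 8 and 12 in RSL3-R libraries. Its direct difference was -1.72 ± 0.37 (adjusted p = 0.0016), and its rise in erastin-R (0.92 ± 0.34, adjusted p = 0.034) was lost without vehicle replicate 1 or 2 or without erastin-R replicate 2 or 3, at adjusted p between 0.074 and 0.141, and in DESeq2 (0.051) and with only the 2 groups compared (0.052). Vehicle and RSL3-R counts overlapped for both genes, and without vehicle replicate 2 COL20A1 also passed the test in RSL3-R (1.94, adjusted p = 0.014, and 1.12 with adjusted p = 0.035 without erastin-R replicate 1) and COL15A1 did so downwards (-1.08, adjusted p = 0.042). COL9A3, a cartilage collagen chain, had 12, 7 and 10 counts in vehicle, 3, 2 and 2 in erastin-R and 4, 10 and 11 in RSL3-R libraries. Its vehicle mean was 3.20-fold the floor of 3 counts per library, a bound that leaves out the spread of the counts. No erastin-R library reached 10 counts, so COL9A3 met the count filter only through conditions where it was higher. The edgeR log2 fold change in erastin-R was -1.99 ± 0.56 (adjusted p = 0.0084), and it ranged from -2.17 to -1.11 under the alternatives. A small part of its exons (0.93%) overlaps TCFL5, a gene on the opposite strand with up to 1151 counts.

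The other 14 members tested changed by less than 2-fold where called. COL5A1 and COL16A1 fell and COL4A4 rose in erastin-R cells next to LAMB1, and COL1A1, COL4A5 and LAMB1 rose and COL13A1 fell in RSL3-R cells. COL12A1 and COL18A1, with at least 68.9 CPM in every library, were called in no comparison, but both passed tests downwards under alternatives. Without erastin-R replicate 1, COL12A1 passed in erastin-R (-0.12, adjusted p = 0.033) and COL18A1 in RSL3-R against vehicle (-0.22, adjusted p = 0.0023) and against erastin-R (-0.28, adjusted p = 0.0006). COL18A1 also passed against vehicle with no filter on low counts (adjusted p = 0.017) and with only the 2 groups compared (adjusted p = 0.0041). Exons of SLC19A1, a gene on the opposite strand with at most 79 counts, cover 16.4% of the exon length of COL18A1. COL5A1, not called in RSL3-R cells, passed there, upwards, in DESeq2 (adjusted p = 0.044), with its size factors in edgeR (0.041), in limma (0.021), with only the 2 groups compared (0.0061) and without erastin-R replicate 1 (0.0045). COL1A1 (0.39 ± 0.15, adjusted p = 0.047) lost its call when any of 5 single libraries was left out, 2 of vehicle, 1 of erastin-R and 2 of RSL3-R, with adjusted p up to 0.226. COL16A1 lost its erastin-R call without vehicle replicate 2 or erastin-R replicate 2 or 3 (adjusted p up to 0.071), COL4A4 without vehicle replicate 1 or 3 or erastin-R replicate 2 (up to 0.145), and COL4A5 its RSL3-R call without vehicle replicate 3, erastin-R replicate 3 or any RSL3-R library (up to 0.2). These genes were picked out after their values were seen.

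Genes that act with collagens and laminins were followed as 5 lists, and their shares are read against those of all genes, 26.9% higher and 26.7% lower in erastin-R and 23.6% higher and 24.7% lower in RSL3-R cells. Among enzymes and chaperones that modify and fold procollagen, 10 of 22 (45.5%) were higher and 6 (27.3%) lower in erastin-R cells, and 9 (40.9%) higher and 4 (18.2%) lower in RSL3-R cells, the lower shares being near or below that of all genes, and 0 of them changed by 2-fold against vehicle; the median log2 fold changes were 0.17 and 0.03. Of 13 tested genes of extracellular processing and cross-linking, 2 (15.4%) were higher and 5 (38.5%) lower in erastin-R and 5 (38.5%) higher and 4 (30.8%) lower in RSL3-R cells. LOXL4, a lysyl oxidase that cross-links collagen, fell by 1.02 ± 0.09 in erastin-R (adjusted p = 7.5e-07), from a mean of 25.8 to 12.8 CPM, and rose by 0.41 ± 0.09 in RSL3-R (adjusted p = 0.0015), to 34.3 CPM. The proteases TLL2 and ADAMTS14 changed by 1.23 ± 0.45 and -1.57 ± 0.53 in RSL3-R cells (adjusted p = 0.036 and 0.024), both at no more than 27 counts per library. TLL2 had 4 to 7 counts in vehicle, 3 to 6 in erastin-R and 11 to 18 in RSL3-R libraries. It met the count filter only through RSL3-R libraries, so its rise there is not independent of the filter. TLL2 is among the 5 genes of this list counted higher in RSL3-R cells.

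Among basement membrane partners, 2 of 10 tested genes (20%) were higher and 3 (30%) lower in erastin-R, and 5 (50%) higher and 2 (20%) lower in RSL3-R cells, where all but the 50% lie near the shares of all genes. HSPG2, which encodes perlecan, a proteoglycan that binds the laminin and collagen IV networks, rose by 1.25 ± 0.07 in erastin-R (adjusted p = 1.4e-08) and 0.86 ± 0.07 in RSL3-R (adjusted p = 4.1e-07), from 164 ± 2 CPM to 389.5 ± 41.0 and 299 ± 14. FREM2, of the Fraser complex of basement membranes, fell by 1.10 ± 0.21 (adjusted p = 0.0005) and 0.63 ± 0.20 (adjusted p = 0.017) from 4.51 CPM. Of 7 interstitial matrix partners tested, 0 were higher (also with an unadjusted p in edgeR, in DESeq2 and in limma) and 4 (57.1%) lower in erastin-R cells, against 26.9% and 26.7% of all genes, and 2 (28.6%) were higher and 3 (42.9%) lower in RSL3-R cells, against 23.6% and 24.7%. FN1, fibronectin, fell by 1.08 ± 0.06 in erastin-R (adjusted p = 6.5e-09), from 2177 ± 59 to 1032 ± 73 CPM, and by 0.24 ± 0.06 in RSL3-R (adjusted p = 0.0032), to 1839.8 ± 23.0. TNC, tenascin C, rose by 1.66 ± 0.09 in RSL3-R (adjusted p = 3.3e-09), from 29.7 ± 2.2 to 93.7 ± 5.0 CPM, with a change of 0.04 ± 0.09 in erastin-R (adjusted p = 0.732). DCN fell in both (-2.86 ± 0.56 and -2.14 ± 0.51, adjusted p = 0.00066 and 0.0031) from at most 18 counts.

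Of 16 receptors tested, 3 (18.8%) were higher and 9 (56.2%) lower in erastin-R cells, against 26.9% and 26.7% of all genes, and 7 (43.8%) higher and 4 (25%) lower in RSL3-R cells, against 23.6% and 24.7%, with median log2 fold changes of -0.25 and 0.17. DDR2, a collagen receptor kinase, rose by 1.51 ± 0.21 in erastin-R (adjusted p = 4e-05) and 1.91 ± 0.21 in RSL3-R (adjusted p = 4.4e-06), from 2.13 to 6.09 and 8.03 CPM. SDC1, the syndecan that binds laminin-332, fell by 1.78 ± 0.11 in RSL3-R (adjusted p = 2.1e-08), from 38.4 ± 3.7 to 11.1 ± 0.8 CPM, and its change in erastin-R was -0.24 ± 0.10 (adjusted p = 0.057). Integrin genes for laminin-332 were chosen after their values were seen, and their log2 fold changes are given with erastin-R first. ITGA3 changed by -0.26 and 0.41 (both called) and ITGA6 by -0.29 (called) and 0.14 (not called). ITGB1 changed by -0.41 (called) and 0.20 (not called), and ITGB4 by -0.15 (not called) and 0.76 (called).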

How the data were processed

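Libraries were made from poly(A) RNA with the NEBNext Ultra kit. The authors deposited, per library, a count of reads per gene without normalization, using uniquely mapped reads in exons, and FPKM values, which were deposited beside the counts and not used here. The submitters' processing notes name HISAT2 2.0.5 and featureCounts 1.5.0-p3; whether counting used strand is not given in the sources used here. All 58735 gene identifiers and coordinates matched GENCODE release 29 (GRCh38). Groups and replicate numbers came from the labels.

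Counts were compared in edgeR 4.0.16 (R 4.3.3, TMM, quasi-likelihood test, 1 model of all 9 libraries, no covariate) for the 16330 genes with at least 10 counts in at least 3 libraries, with Benjamini-Hochberg adjustment over these genes. A gene was called at an adjusted p below 0.05, and at 2-fold also with an absolute log2 fold change of 1 or more. Standard errors were computed as the absolute log2 fold change over the square root of F. Groups with no library above 3 counts were set to 3 counts for a fold, which is then a lower bound on the ratio of means and leaves out their spread. Genes outside these rules are named as chosen after their values were seen. Levels per kilobase use the deposited gene length, which equals the union of exons for all 56 members. Same-numbered libraries did not deviate together (mean correlation -0.025 over 9 pairs across conditions, 0.013 over the 18 pairs with different numbers), so the numbers were not treated as pairs. The fit was tested on simulated data.

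The members, gene lists and tests were chosen with earlier results of these data known. Members named by rule are those past 2-fold in a comparison, the 5 highest per length and chains of laminin-332, collagen IV alpha1 and alpha2 and collagen VI; of each partner list, up to 3 genes a direction past 2-fold against vehicle were named. Single results of 1 gene are not reported here, and it remains in the counts and sums. Alternatives were edgeR's filterByExpr, no filter, DESeq2 size factors, DESeq2 1.42.0, quantile normalization with limma 3.58.1, a replicate block, only the 2 groups compared, an unadjusted p, and each library left out. Figures were drawn with matplotlib 3.10.9 (Python 3.11.15).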

Additional observations from a re-analysis of the deposited data

Results flagged for a closer look

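The effects of the 2 drug-treated states differed for the following members, which were called in opposite directions against vehicle and also called in the direct comparison. The log2 difference of RSL3-R from erastin-R was 0.94 for LAMA5, 0.93 for COL6A3, 0.71 for LAMB1 and 0.66 for LAMC1, with the erastin-R libraries below and the RSL3-R libraries above vehicle for each gene's mean. LAMB1 was outside the rule for naming and is given because of this difference. The adjusted p of the direct comparison lay between 5.7e-07 for LAMC1 and 5.9e-06 for COL6A3 (LAMA5, also 5.9e-06). The erastin-R side was small for LAMA5 (-0.29) and LAMC1 (-0.19), and both calls were lost in limma after quantile normalization (adjusted p = 0.087 and 0.07), that of LAMA5 also with only the 2 groups compared (adjusted p = 0.062). No group has 4 or more libraries, so single libraries were not screened for distance from their group. The cause of these differences was not tested.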

How the results depend on the processing

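No called change of a member turned direction under the alternatives run. In RSL3-R against vehicle, the count of members higher at 2-fold was 0, 1 without a filter on low counts, 1 with only the 2 groups compared and 2 with an unadjusted p; leaving out 1 library gave 0 to 2, and 1 to 2 members lower at 2-fold instead of 1. In RSL3-R against erastin-R, leaving out 1 library gave 4 to 9 members lower instead of 5. All genes lower there then numbered 3643 to 4933 instead of 4361. With a replicate block, 8 members were higher and 13 lower in erastin-R, 11 and 3 in RSL3-R, and 17 and 5 in the direct comparison; the 1 call of a member that the replicate block ended was COL1A1 in RSL3-R (adjusted p = 0.067). Among the partner lists, the modifying enzymes lower in RSL3-R numbered 7 instead of 4 with only the 2 groups compared. The processing and cross-linking genes lower there numbered 7 instead of 4 with only the 2 groups compared or an unadjusted p. Of all 16330 genes, 4744 were lower there with only the 2 groups compared and 4516 with an unadjusted p, instead of 4032. Leaving out erastin-R replicate 1 gave 7 for each of these 2 list counts and 5 instead of 3 receptors higher in erastin-R. The all-gene counts rose as well, to 4791 of 16195 lower in RSL3-R. Those higher in erastin-R numbered 4870 of 16195 instead of 4396 of 16330. Depth limits the members with few reads: of those named by rule, COL9A3, COL4A6, COL4A3, COL20A1, COL15A1, LAMA2 and LAMA4 had under 50 counts in every library. COL9A3, COL4A6 and LAMA4 passed the count filter with no erastin-R library at 10 counts, so their lower levels there are not independent of it. Paired fits were not used for the results because the replicate numbers did not mark libraries that deviate together.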
